A study of Mus musculus with 13 samples.

Results

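Amino acid transporters move amino acids across the plasma membrane, and 10 of their genes were followed in C2C12 myotubes exposed to palmitoylethanolamide (PEA): Slc7a11, Slc7a5, Slc3a2, Slc7a1, Slc7a3, Slc38a1, Slc38a2, Slc1a4, Slc1a5 and Slc6a9. They were taken as a list of symbols and matched to Ensembl identifiers. All 10 had values among the 16382 genes of the deposited tables, and 9 passed edgeR's filter on low counts and were among the 13142 genes tested. Slc7a3 was below that filter.

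C2C12 is an established mouse myoblast line, labelled wild type, whose cells fuse into multinucleated myotubes in low serum medium. Both groups were differentiated for 8 days and then kept for 24 h in the same medium with the vehicle DMSO (CON) or with 10 µM PEA, a fatty acid amide related to the endocannabinoids. The data comprised 12 poly-A RNA-seq libraries, 6 CON and 6 PEA, from duplicate wells in 3 repeats of the experiment. Since the labels do not say which libraries were wells of the same repeat, p-values measure the spread between these libraries, which is partly technical. All 12 were treated as independent, so p-values can be too small and intervals too narrow. Cultures of this kind keep some unfused myoblasts beside the myotubes.

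Several of the 10 genes belong to exchangers that trade 1 amino acid for another, and others to carriers that bring amino acids in. Slc7a5 and Slc7a11 encode light chains that carry the substrate, and each is held in the membrane by the heavy chain encoded by Slc3a2. Slc7a5 takes up leucine and other large neutral amino acids, which skeletal muscle uses both as building blocks and as a signal to the growth kinase mTORC1. When amino acids run short, translation of the transcription factor ATF4 increases, and ATF4 with its C/EBP partners activates many amino acid transporter and synthesis genes.

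The DNA element through which ATF4 and C/EBP factors act was sought in the promoters, together with 3 other motifs. RefSeq promoters (build GRCm38.p6, 250 bases before to 50 bases after each start site) matched 6 of the 10 genes, with 9 promoters in all. The files themselves use mm39, so these positions are not those of the count tables. The letters searched on both strands were TGATGNAA (C/EBP-ATF response element core), TGACGTCA (cAMP response element), TGACNNNGC (antioxidant response element core) and CACGTG (E-box). No match of one motif overlapped a match of another. The 4 stretches of 150 bases shown here, 5′ to 3′ on the strand of the gene, were picked from those that hold a match. They lie beside genes that were called (Slc1a4, Slc6a9) or were not called (Slc7a11, Slc38a2) in the comparison of the groups. Another Slc6a9 promoter and a Slc7a1 promoter also hold a match and are not shown. Capitals mark the match.

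Slc7a11, chr3:50443614-50443763, minus strand: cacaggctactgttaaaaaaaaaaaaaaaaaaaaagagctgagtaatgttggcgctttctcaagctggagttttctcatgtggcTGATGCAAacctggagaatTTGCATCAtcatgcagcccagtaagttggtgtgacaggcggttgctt
Slc1a4, chr11:20332710-20332859, minus strand: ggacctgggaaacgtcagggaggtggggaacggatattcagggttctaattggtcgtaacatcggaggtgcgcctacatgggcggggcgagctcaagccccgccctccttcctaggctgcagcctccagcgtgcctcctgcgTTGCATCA
Slc6a9, chr4:117849200-117849349, plus strand: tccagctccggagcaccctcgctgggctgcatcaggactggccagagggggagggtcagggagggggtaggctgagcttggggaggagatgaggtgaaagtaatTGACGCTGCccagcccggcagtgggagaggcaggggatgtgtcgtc
Slc38a2, chr15:96699729-96699878, minus strand: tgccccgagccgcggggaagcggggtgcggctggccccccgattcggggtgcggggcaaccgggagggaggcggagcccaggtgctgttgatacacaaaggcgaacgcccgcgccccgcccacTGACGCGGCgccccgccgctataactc

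TGATGNAA occurred in 2 of the 9 promoters, those of Slc7a11 and Slc1a4, and in 3.97% of all 32851 promoters. In Slc7a11 it was present in both orientations, 66 bases upstream as TGATGCAA and 47 bases upstream as its reverse complement, TTGCATCA. In Slc1a4 the single match began 4 bases upstream of the start site and ran past it. TGACNNNGC occurred in 4 of the 9 promoters against 12.4% of all promoters. Slc38a2 held it 27 bases upstream, 2 of the 3 Slc6a9 promoters held it 46 and 45 bases upstream, and 1 of the Slc7a1 promoters held it 11 bases upstream. TGACGTCA and CACGTG, found in 1.79% and 7.15% of all promoters, occurred in 0 of the 9. The Slc3a2 promoter held none of the 4 motifs.

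Total estimated counts per library ran from 12354845 to 50397444 (median 18420605), the deepest, CON replicate 1, holding 2.25 times the total of the second deepest. The 8 myotube markers summed to between 125173 and 182147 normalized counts in CON and between 128703 and 143394 in PEA. All 8 had estimates below 0, with a median log2 fold change of -0.21, 5 had an unadjusted p below 0.05, and 2 were called lower, Myl1 (-0.40, adjusted p = 0.00235) and Tnnt3 (-0.33, adjusted p = 0.0184). Leukocyte and endothelial markers summed to at most 18.4 and 13.3 normalized counts in any library. Of the 8 markers of dividing cells, 8 were called higher in PEA, with sums of 2773 to 7084 in CON and 7333 to 8698 in PEA, and the highest CON sum was that of replicate 2. This library also had the highest CON sum of the myotube markers, 182147, and of the satellite cell and myoblast markers, 2779. The latter 3 markers had 0 calls (median log2 fold change -0.02), and the 1 adipocyte marker tested was not called. Over all 13142 genes tested, 829 were called higher, 623 were called lower and 3601 had an unadjusted p below 0.05. The first principal component of all tested genes (30.1% of the variance) placed CON replicate 2, at 9.58, above PEA replicates 1 and 3, at 5.61 and 6.27. CON replicates 3 and 6 lay furthest from the PEA libraries, at -35.32 and -26.60. Fold changes of the called transporters among the 10 are therefore also given without CON replicate 2. It was picked after its position was seen, and leaving it out gave the highest estimate for each called transporter. Leaving out CON replicate 3 gave the lowest log2 fold change for Slc7a5 (0.61), Slc6a9 (0.81) and Slc7a1 (0.27). The lowest for Slc3a2 (0.29) and Slc1a4 (0.17) came without PEA replicate 4, and for Slc1a5 (0.34) without PEA replicate 6.

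To ask whether PEA altered transporter transcripts, the groups were compared with edgeR's quasi-likelihood test and Benjamini-Hochberg adjustment over the 13142 genes. Of the 9 genes tested, 6 were called at an adjusted p below 0.05, all in the upward direction, namely Slc6a9, Slc7a5, Slc1a5, Slc7a1, Slc3a2 and Slc1a4. Among all genes tested, 11.0% were called in either direction and 6.31% were called higher. The estimate was above 0 for 9 of 9, and their median log2 fold change was 0.34, against 0.01 over all genes tested. Every PEA library exceeded every CON library for 2 of the 9, Slc1a4 and Slc7a1, a pattern met by 2.53% of all genes tested. The normalized counts of the 10 genes together ran from 18979 to 22831 (median 20054) in CON and from 22712 to 25972 (median 25033) in PEA, so the groups overlapped only through CON replicate 2.

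The 6 calls were present in 10 of 11 alternative fits at the same threshold. Once the percentage of read pairs that aligned uniquely in each library was added to the model, 0 of the 9 were called, although 6 had an unadjusted p below 0.05, and the median log2 fold change was 0.21 with 9 of 9 still above 0. Over all 13142 genes, this covariate left 230 calls and 1963 with an unadjusted p below 0.05, and it left 5 of the 8 dividing cell markers and 1 of the 8 myotube markers called. In whole cultures, fewer cells of a type and less RNA per cell cannot be told apart, and the part of the dividing cell and myotube markers in these differences was not tested.

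**Figure D1:**
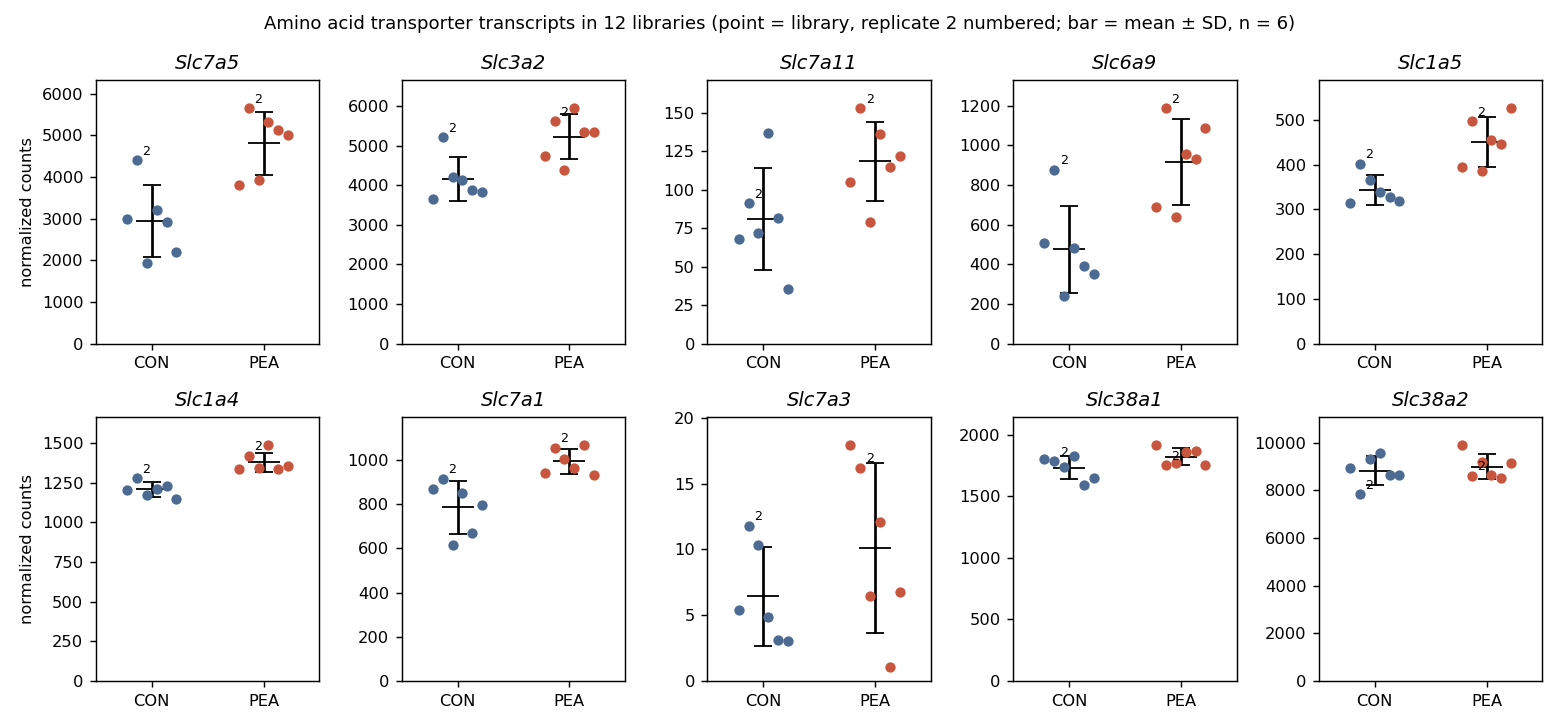
Normalized counts (linear axis from 0) of the 10 transporter genes in CON and PEA, 1 point per library, with the mean and SD of 6 libraries as black bars and replicate 2 of each group numbered. CON replicate 2 was the highest CON library for Slc7a5, Slc3a2, Slc6a9, Slc1a5, Slc1a4, Slc7a1 and the low Slc7a3, and lay above PEA replicates 1 and 3 for the first 4 of these.

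Transcripts of both chains of the large neutral amino acid exchanger were called higher. Slc7a5 (ENSMUSG00000040010, chromosome 8, 122607884 to 122634433, minus strand, GRCm39) had between 1942 and 4410 normalized counts in CON, with a median of 2965, and between 3812 and 5659 in PEA, with a median of 5066. Of the PEA libraries, 4 were above the highest CON library and all 6 were above the CON median. The mean rose from 2949 ± 871 to 4808 ± 760 (SD, n = 6), a 1.63-fold increase (log2 fold change 0.71, SE 0.16, 95% interval 0.38 to 1.04, adjusted p = 0.00961). Without CON replicate 2 the log2 fold change was 0.86 (adjusted p = 3.28e-04).

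The heavy chain transcript had a smaller estimate. Slc3a2 (ENSMUSG00000010095, chromosome 19, 8684245 to 8701108, minus strand) ranged from 3651 to 5215 normalized counts in CON (median 4017) and from 4387 to 5955 in PEA (median 5352). The lowest of these PEA values was exceeded by 1 CON library, replicate 2. The mean rose from 4159 ± 556 to 5232 ± 576 (SD, n = 6), with a log2 fold change of 0.33 (SE 0.08, 95% interval 0.16 to 0.51, adjusted p = 0.0195). Leaving out CON replicate 2 gave a log2 fold change of 0.41 (adjusted p = 0.00101).

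The cystine and glutamate exchanger xCT, whose light chain is Slc7a11 (ENSMUSG00000027737, chromosome 3, 49846975 to 50398070, minus strand), was counted at low levels. It ranged from 35.6 to 137 normalized counts in CON (median 76.9) and from 78.7 to 153 in PEA (median 119). The lowest value was that of CON replicate 6 and the highest CON value that of replicate 4, so the CON range covered all but 1 of the PEA libraries. The log2 fold change of 0.57 (SE 0.24, 95% interval 0.07 to 1.07) did not pass the threshold (adjusted p = 0.129). Without CON replicate 4 it did, at a log2 fold change of 0.77 and an adjusted p of 0.0317. This was 1 of 12 fits with 1 library left out, the lowest log2 fold change being 0.41 without CON replicate 6. Slc7a11 was called in 0 of 11 alternative fits.

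The largest estimated change was that of the glycine transporter. Slc6a9 (ENSMUSG00000028542, chromosome 4, 117691703 to 117732395, plus strand), which takes up glycine together with sodium and chloride, had between 239 and 877 normalized counts in CON (median 437) and between 638 and 1189 in PEA (median 944). CON replicate 2 again lay among the PEA values, while the other 5 CON libraries were below the lowest PEA library. Its mean rose from 475 ± 219 to 915 ± 216 (SD, n = 6), a 1.92-fold increase (log2 fold change 0.94, SE 0.23, 95% interval 0.46 to 1.43, adjusted p = 0.0163). The estimate without CON replicate 2 was 1.20 (adjusted p = 3.40e-04).

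Both neutral amino acid exchangers of the Slc1 family were called. Slc1a5 (ENSMUSG00000001918, chromosome 7, 16515265 to 16532731, plus strand), a sodium-dependent glutamine exchanger, had from 315 to 402 normalized counts in CON (median 333) and from 387 to 527 in PEA (median 451). Its log2 fold change was 0.40 (SE 0.09, 95% interval 0.21 to 0.58, adjusted p = 0.0113), and 0.44 without CON replicate 2 (adjusted p = 0.00308). Slc1a4 (ENSMUSG00000020142, chromosome 11, 20252180 to 20282774, minus strand), which exchanges alanine, serine and cysteine, had from 1149 to 1281 in CON (median 1209) and from 1335 to 1487 in PEA (median 1350). These ranges did not overlap, and without CON replicate 2 the log2 fold change was 0.21 (adjusted p = 0.00554). With all libraries the change was the smallest of the 6 called, with a log2 fold change of 0.19 (SE 0.05, 95% interval 0.10 to 0.29, adjusted p = 0.0135), and the spread within each group was narrow, at 46.5 and 61.7 normalized counts (SD, n = 6).

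Slc7a1 and Slc7a3 carry cationic amino acids, as does Slc7a2, which is not among the 10. Slc7a2, singled out after its values were seen, averaged 2158 ± 334 normalized counts over the CON and 2112 ± 194 over the PEA libraries (SD, n = 6), with a log2 fold change of -0.03 (adjusted p = 0.867). Slc7a1 (ENSMUSG00000041313, chromosome 5, 148264220 to 148336848, minus strand), the widely expressed arginine and lysine transporter, had between 614 and 915 normalized counts in CON (median 824) and between 932 and 1066 in PEA (median 984). No CON library reached the lowest PEA library. The log2 fold change was 0.34 (SE 0.08, 95% interval 0.16 to 0.51, adjusted p = 0.0190). It was 0.38 without CON replicate 2 (adjusted p = 0.00527), and the call was lost without PEA replicate 5, at a log2 fold change of 0.31 and an adjusted p of 0.0507. Slc7a3 (ENSMUSG00000031297, chromosome X, 100122745 to 100129631, minus strand) had only 1.00 to 17.0 estimated counts per library. Its normalized counts were 3.05 to 11.8 in CON (median 5.11) and 1.02 to 17.9 in PEA (median 9.43), with the lowest value in a PEA library. Fitted without the filter, it had a log2 fold change of 0.63 with an SE of 0.58 (adjusted p = 0.567), so no difference was detected at these low counts.

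The sodium-coupled System A carriers, which accumulate small neutral amino acids such as alanine and glutamine, had the smallest estimates. Slc38a1 (ENSMUSG00000023169, chromosome 15, 96469298 to 96541851, minus strand) ranged from 1593 to 1825 normalized counts in CON (median 1763) and from 1751 to 1914 in PEA (median 1814). Its log2 fold change was 0.07 (95% interval -0.02 to 0.17, adjusted p = 0.333). Slc38a2 (ENSMUSG00000022462, chromosome 15, 96585266 to 96597894, minus strand), known to be induced by amino acid shortage, ranged from 7842 to 9551 in CON (median 8782) and from 8506 to 9890 in PEA (median 8911). Here CON replicate 2 was the lowest CON library. The log2 fold change was 0.03 (95% interval -0.08 to 0.14, adjusted p = 0.745), and it was -0.00057 without CON replicate 2. Among alternative fits at the same threshold, 0 of 11 called either gene, and the upper bounds of the intervals lay below the lower bounds of those of Slc7a5 and Slc6a9.

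**Figure D2:**
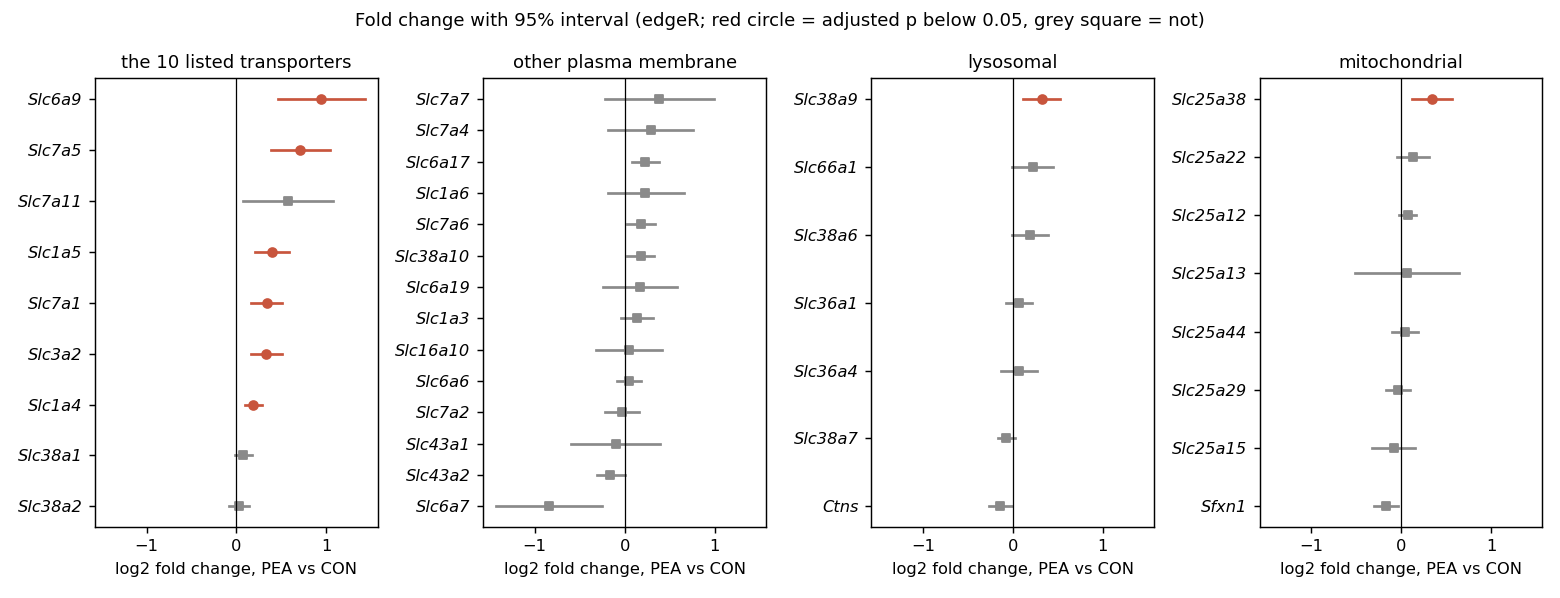
Log2 fold change of PEA against CON with its 95% interval for each gene tested in 4 groups of amino acid transporters, with red circles for an adjusted p below 0.05 by edgeR and grey squares for the others. The 10 listed transporters hold 6 called genes, the other plasma membrane transporters 0, and the lysosomal and mitochondrial groups 1 each.

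Levels were compared between the genes as normalized counts per kilobase of annotated exon. The CON means fell into steps. Slc38a2 (910 ± 62.4), Slc3a2 (891 ± 119) and Slc7a5 (768 ± 227; SD, n = 6 each) stood highest and overlapped in their libraries. Slc1a4 followed at 292 ± 11.2 and was separate from its neighbours on both sides. Slc38a1 at 91.7 ± 4.88, Slc6a9 at 78.2 ± 36.1, Slc7a1 at 66.7 ± 10.1 and Slc1a5 at 63.6 ± 6.18 overlapped each with the next. Slc7a11 at 5.22 ± 2.16 and Slc7a3 at 1.32 ± 0.770 were lowest. On this scale 92.8% of the 13131 tested genes with a length were below Slc38a2, 91.3% below Slc7a5, 40.0% below Slc1a5 and 5.86% below Slc7a11. In PEA the order at the top was Slc7a5 (1252 ± 198), Slc3a2 (1121 ± 124) and Slc38a2 (928 ± 53.8). This order depended on the length used. Per kilobase of the longest transcript, the PEA order was Slc3a2 (1690 ± 186), Slc38a2 (1472 ± 85.2) and Slc7a5 (1323 ± 209). In CON the longest transcript gave the same order of the 10 genes but higher levels, at 1442 for Slc38a2, 1343 for Slc3a2, 220 for Slc38a1, 135 for Slc6a9, 106 for Slc7a1, 97.4 for Slc1a5 and 8.79 for Slc7a11.

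**Figure D3:**
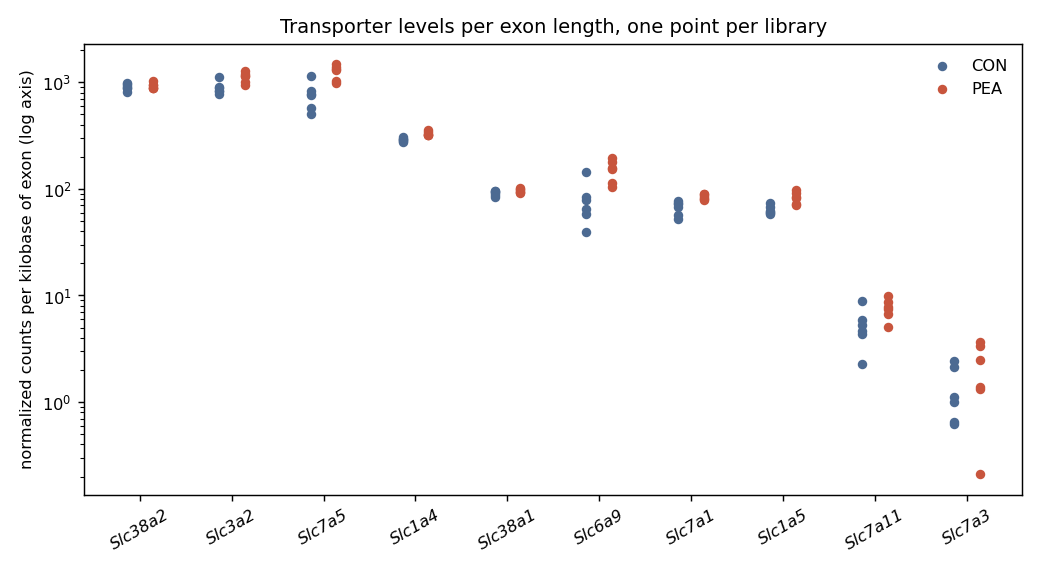
Level of each transporter gene in normalized counts per kilobase of annotated exon (log axis), 1 point per library, CON in blue and PEA in red, ordered by the CON mean. The levels run from about 910 for Slc38a2 to 1.32 for Slc7a3 in CON.

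Because light and heavy chains form 1 complex, and family members share substrates, 5 within-library ratios were compared. The groups were tested by exact permutation, two-sided, with 924 possible assignments and a smallest attainable p of 0.00216. The ratio of Slc7a5 to Slc3a2 counts lay between 0.461 and 0.846 in CON (median 0.765) and between 0.806 and 1.01 in PEA (median 0.915). CON replicates 3 and 6 had the lowest ratios, at 0.461 and 0.571, and CON replicates 1 and 2, at 0.821 and 0.846, exceeded PEA replicate 1. The log2 ratio was higher by 0.41 in PEA, from -0.54 ± 0.35 to -0.13 ± 0.11 (SD, n = 6, exact p = 0.00649, adjusted over 5 ratios 0.0325). This was the ratio that passed the threshold, and it did so in 4 of 12 fits with 1 library left out, where the highest adjusted p was 0.0649.

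The ratio of Slc1a4 to Slc1a5 moved in the opposite direction, from 3.18 to 3.81 in CON (median 3.59) to 2.57 to 3.46 in PEA (median 3.12). Its difference of -0.19 on the log2 scale did not pass after adjustment (exact p = 0.0368, adjusted 0.0920). For Slc7a11 to Slc3a2 the difference was 0.29 (exact p = 0.292, adjusted 0.487). It passed in 1 of 12 fits with 1 library left out, without CON replicate 4, at 0.46 with an adjusted exact p of 0.0433. The differences for Slc38a1 to Slc38a2 and for Slc7a3 to Slc7a1 were 0.04 and 0.05 (adjusted exact p = 0.606 and 0.935).

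**Figure D4:**
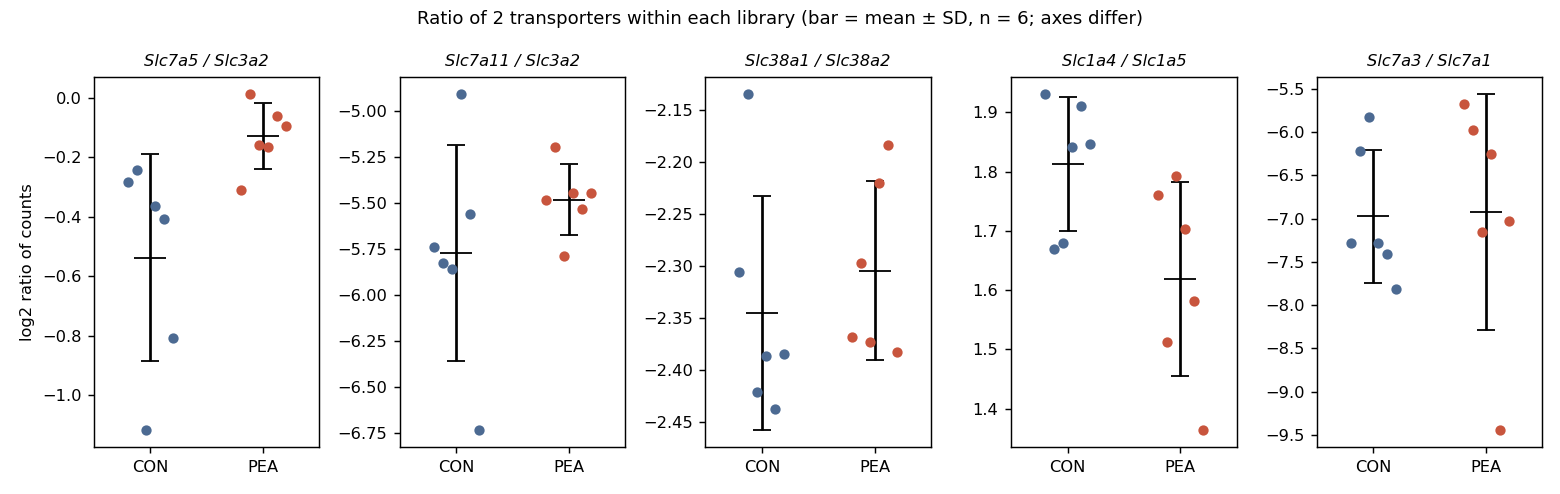
Log2 ratio of the counts of 2 transporter genes within each library, with the mean and SD of 6 CON and 6 PEA libraries (the vertical axes differ and do not start at 0). The Slc7a5 to Slc3a2 ratio was higher in PEA by 0.41, while the 4 other ratios did not pass the threshold after adjustment.

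Variation between libraries of the same group was shared by part of the transporters. After the group means were removed, Pearson's r over the 12 libraries was 0.96 between Slc7a5 and Slc6a9 and 0.83 between Slc3a2 and Slc1a5. With the mean of the other 8 genes, r was 0.84 for Slc7a5, 0.80 for Slc6a9, 0.71 for Slc7a11, 0.70 for Slc3a2, 0.65 for Slc1a4, 0.52 for Slc1a5, 0.43 for Slc7a1 and 0.32 for Slc38a1. Slc38a2 ran against the others, at -0.53. Of the 9 genes, CON replicate 2 had the highest CON value for 6, and PEA replicate 3 had the lowest PEA value for 4. These values are descriptions over libraries that include duplicate wells and differ in depth, and were not tested.

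**Figure D5:**
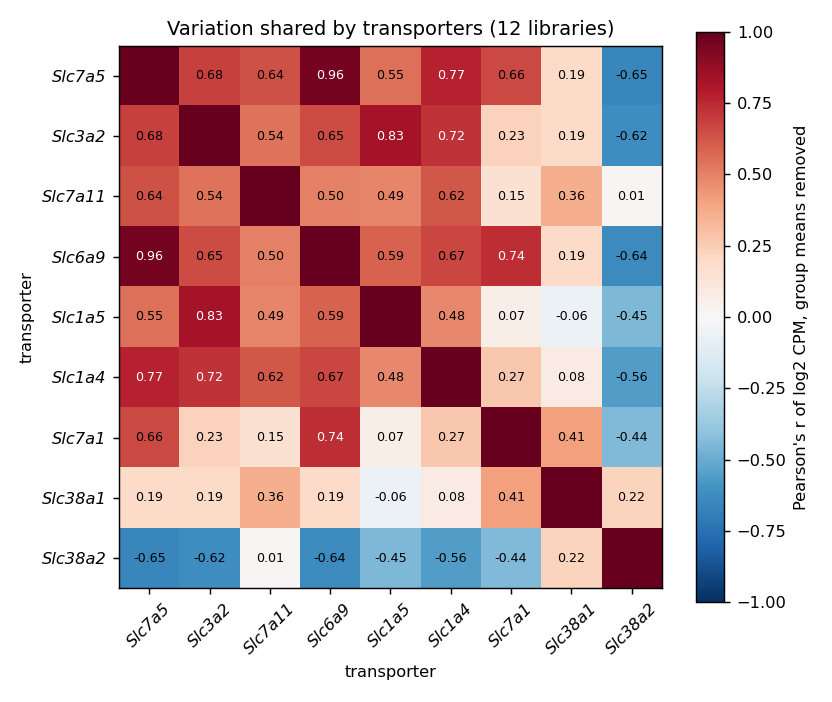
Pearson's r of log2 CPM between pairs of the 9 tested transporters over 12 libraries after removal of the group means (red positive, blue negative). Slc7a5 with Slc6a9 has the highest value, 0.96, and Slc38a2 is negative with 6 of the 8 others.

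The 5 genes outside the list whose variation was most like the mean transporter profile were Aldh1l2 (r = 0.97), Loxl3, Apod, Igfbp7 and Ly6c1 (0.95 each), over the same 12 libraries. Aldh1l2, a mitochondrial enzyme of folate metabolism, averaged 441 ± 141 normalized counts across the CON and 974 ± 186 across the PEA libraries (SD, n = 6), a log2 fold change of 1.15 with an adjusted p of 8.50e-04. The log2 fold changes of Loxl3, Apod, Igfbp7 and Ly6c1 were 0.46, 0.66, 0.55 and 0.81, with adjusted p between 0.0130 and 0.0254. With ranks in place of values, 2 of the 5 remained among the most alike, Aldh1l2 and Igfbp7.

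Among 36 other plasma membrane amino acid transporters, 14 were tested, 9 were below the filter and 13 were not used here. EdgeR called 0 of the 14, with 5 at an unadjusted p below 0.05, limma-voom called 0 and DESeq2 called 1. Over all 13142 genes edgeR called 11.0%, and 3601 had an unadjusted p below 0.05. The median log2 fold change of the 14 transporters was 0.16, with 10 estimates above 0 and 4 below. The most abundant were the taurine transporter Slc6a6, at 5887 ± 585 in CON and 6077 ± 386 in PEA (SD, n = 6), and Slc38a10, at 3051 ± 360 and 3450 ± 274, with log2 fold changes of 0.05 and 0.18 (adjusted p = 0.675 and 0.117). The gene that DESeq2 called, Slc6a17, had a log2 fold change of 0.23 and an adjusted p of 0.0508 by edgeR, and was singled out after its values were seen.

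Transporters of lysosomes and mitochondria had 1 call in each group, a share near the 11.0% called over all genes. Of 7 lysosomal transporters tested, 1 was called, Slc38a9, a lysosomal arginine sensor upstream of mTORC1, with a CON mean of 214 ± 21.8 and a PEA mean of 267 ± 29.9 normalized counts (SD, n = 6), a log2 fold change of 0.32 (SE 0.10, adjusted p = 0.0456). The most abundant of the others, the glutamine and asparagine exporter Slc38a7 and the cystine exporter Ctns, had log2 fold changes of -0.08 and -0.14 (adjusted p = 0.285 and 0.134). Of 8 mitochondrial carriers tested, 1 was called, the glycine carrier Slc25a38, with 233 ± 33.3 in CON and 296 ± 34.5 in PEA, a log2 fold change of 0.34 (SE 0.11, adjusted p = 0.0451). The aspartate and glutamate carrier Slc25a12 and the branched-chain amino acid carrier Slc25a44 had values of 0.08 and 0.04 (adjusted p = 0.280 and 0.727). Both calls were close to the threshold, and the group medians were 0.07 and 0.06. They were lost in 9 and 10 of the 12 fits with 1 library left out.

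Several transporters belong to the amino acid response, whose other genes were listed beside them. Of 16 tested, 9 were called, all higher, where 6.31% of all genes tested were called higher, with a median log2 fold change of 0.28 over the 16, and 0 were called once unique alignment entered the model, which left 230 calls over all 13142 genes. With 1 library left out, between 6 (without PEA replicate 5) and 12 (without CON replicate 2) of the 16 were called. The 8 with the smallest p were Chac1 (log2 fold change 0.72), which degrades glutathione, the serine synthesis enzymes Phgdh (0.50) and Psat1 (0.25), Sesn2 (0.50), a leucine sensor, Asns (0.49), the asparagine synthetase, Trib3 (1.13), a pseudokinase, and the transcription factors Atf3 (0.74) and Cebpg (0.23), with adjusted p between 0.00452 and 0.0359. Atf4 itself ranged from 5255 to 7893 normalized counts in CON and from 6424 to 7924 in PEA, with a log2 fold change of 0.24 that missed the threshold (adjusted p = 0.0585), and Atf5 had 0.10 (adjusted p = 0.171). DESeq2, limma-voom, limma on normalized counts at a pseudocount of 5 and the fit with the replicate number as a block called Atf4. So did the fits without CON replicate 2 and without PEA replicate 3, while the other alternative fits did not. Within groups, r with the mean transporter profile over 12 libraries had a median of 0.76 among the 16 genes and ran from -0.40 for Eif2ak4 to 0.93 for Trib3. For the 8 markers of dividing cells its median was 0.41 (0.28 to 0.61), and for the 8 myotube markers 0.23 (-0.02 to 0.73). These differences were not tested.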

How the data were processed

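RNA was extracted from C2C12 myotubes after 24 h in CON or PEA medium. The authors prepared poly-A libraries (NEBNext Ultra II), sequenced paired ends, removed low quality reads, aligned to mm39 with STAR 4.4.1d and quantified Ensembl genes in Partek Flow. Whether counting used strand is not given in the sources used here. The authors deposited estimated counts, 30.8% of them above 0 not whole (tolerance 0.01), and a second table, a signal obtained by scaling those counts with a single DESeq2 median-ratio factor for each library. Both tables hold 16382 genes and end at an identifier above which 2240 of 21770 protein-coding genes lie, which were not used here. The 13 labels name 12 libraries, because PEA replicate 2 and its top-up run share 1 set of values.

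Estimated counts were rounded and tested with edgeR 4.0.16 in R 4.3.3 (TMM, default filter, quasi-likelihood test, adjusted p below 0.05). SE was derived from the F statistic. Normalized counts are the deposited ones. Ratios used a pseudocount of 0.5 and log2 CPM (counts scaled to library size) a prior count of 2. Symbols, positions and exon lengths came from GENCODE M39 (GRCm39). Alternatives used DESeq2 1.42.0 and limma 3.58.1, other filters and scalings, thinned or unrounded counts, the replicate number as a block, a covariate from the study's alignment table, and each library left out. The edgeR step was run on simulated data with independent libraries, which cannot show how it behaves with duplicate wells. Within groups, the 30 pairs of libraries differed by more than sampling noise (chi-square per gene 3.79 to 45.5). Errors and intervals reflect counting and library-to-library spread, nothing else. The 10 transporters and the other lists were chosen with earlier results of these data known. The text names each of the 10, in the other lists the called genes (at most 8, by p) and the 2 uncalled genes of highest mean, and the 5 genes most alike.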

Additional observations from a re-analysis of the deposited data

Results flagged for a closer look

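For Slc3a2, the heavy chain shared by Slc7a5 and Slc7a11, CON replicate 2 had 5215 normalized counts and stood apart from the other 5 CON libraries, by a gap of 0.64 of the group's whole range that passed the 95% critical value of Dixon's test for 6 libraries. Chance exceeds that value in about 1 of 20 groups, and 30 groups were screened, of which 1 exceeded it. Without this library the log2 fold change of Slc3a2 was 0.41, against 0.33 with it. The same library had the highest CON value for 6 of the 9 transporters tested.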

How the results depend on the processing

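The 6 transporter calls fell to 0 with the share of uniquely aligned pairs as covariate, where the log2 fold changes were 0.37 for Slc7a5, 0.21 for Slc3a2, 0.27 for Slc7a1, 0.14 for Slc1a4, 0.24 for Slc1a5 and 0.46 for Slc6a9 (adjusted p 0.192 to 0.324), and to 1 at an adjusted p below 0.01. Calls over all genes fell from 1452 to 230 and 405 under these settings. With the covariate, lysosomal, mitochondrial and amino acid response calls were 0, 0 and 0. The cause was not tested. Other plasma membrane transporters had 1 call with DESeq2, with at least 10 counts in every library and with limma on normalized counts at either pseudocount, Slc6a17 in each. Slc38a9 lost its call with limma-voom and with no filter (0 lysosomal calls), and Slc25a38 with thinned libraries (0 mitochondrial calls). Of the 5 genes most alike, 2 remained with Spearman's rho and 2 with group means kept. With 1 library left out, transporter calls were 5 (without PEA replicate 5) to 7 (without CON replicate 4), calls over all genes 778 (without PEA replicate 6) to 2203 (without CON replicate 2), calls of other plasma membrane, lysosomal and mitochondrial transporters 0 to 1 each, and amino acid response calls 6 (without PEA replicate 5) to 12 (without CON replicate 2). Log2 ratio differences then ran from 0.29 to 0.47 for Slc7a5 to Slc3a2, from 0.10 to 0.46 for Slc7a11 to Slc3a2 and from -0.20 to 0.55 for Slc7a3 to Slc7a1, the last reversed in 7 fits. Slc38a2 was at -0.00057 without CON replicate 2.

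Libraries with the same replicate number did not vary together (correlations of -0.08 to 0.06, 0 of 6 pairs above 0.1). In the fit with the replicate block, the transporter calls stayed at 6, other plasma membrane calls became 1 (Slc38a10) and mitochondrial calls 0. The paired log2 ratio difference of Slc7a5 to Slc3a2 was 0.41 with an adjusted exact p of 0.156, in a design whose smallest exact p is 0.0312.

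Counts were low for Slc7a3, with at most 17.0 estimated counts per library, and for Slc7a11, with 35.0 to 178. The part of depth in their results was not tested.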
